A study of Mus musculus with 4 samples.

Results

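Dendritic cells after 10 days of differentiation in culture were compared with cells after 7 days, by setting the array titled for day 10 against the array titled for day 7. These are 2 of the 4 arrays of the series, and they were chosen by their titles alone. The study followed mouse dendritic cells that were grown from bone marrow progenitors amplified in vitro. Its 4 groups are those progenitors, cells at day 7, cells at day 10, and day 10 cells that were also given TNFalpha, a maturation signal for dendritic cells, over 16 hours. Each group has 1 array of total RNA, so no replicate spread exists, no p-value is given, and each difference is one between 2 arrays. All groups descend from cells expanded in culture, so they model dendritic cells made in a dish and not those taken from an animal. The number of cultures or mice behind an array is not in the labels, nor are the strain and the culture media.

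Dendritic cells take up antigen, cut it in lysosomes and show the peptides on MHC class II molecules to T cells. Their cultured precursors divide and carry the granule enzymes of immature myeloid cells, and differentiation is known to end both of these while the machinery of antigen presentation is built. Glycolysis, the breakdown of glucose to pyruvate and lactate, supports activated dendritic cells, and many of its genes are targets of the oxygen-regulated factor HIF.

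The values are probe-set intensities, given here as levels in arbitrary units after each array was scaled to the same 75th percentile. Levels under 428 units, the 60th percentile of all values, carry no order and were set to that floor before ratios were taken. Where the dimmer array lies under the floor the fold is written "at least", and where both do none is given. A gene is called held when day 10 and day 7 differ at least 2-fold in the same direction both after that scaling and after quantile normalization, which gives every array the same distribution. Log2 ratios are day 10 over day 7, and where a pair is given the first is after scaling and the second after quantile normalization. Mid-level genes have a mean log2 level of both arrays from 9 to 12, which is 512 to 4096 units.

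Day and array behaviour were mixed in this comparison. The 9 probe sets for bacterial transcripts that are spiked into the sample, and that no cell makes, had log2 ratios of 1.20 to 1.77 with a median fold of 2.83. After quantile normalization their median was 1.22 with a range of 0.02 to 1.74, so quantile normalization did not bring the dimmer spiked probe sets level. The probe set BioB-M, itself in the mid-level range, read 825 units at day 7 and 2807 at day 10. The brightest probe set of any gene or control was at 30560 units at day 7 and 137313 at day 10, while the number of genes above the floor was close, at 3991 and 3964. The arrays also differed in a level-dependent way. Probe sets between 512 and 1024 units had a median log2 ratio of -0.02, those between 2048 and 4096 units 0.05, those between 16384 and 32768 units 0.92, and brighter ones 1.76. After quantile normalization the medians of these classes lay between -0.15 and 0.08. A control probe set for the 3′ end of 18S ribosomal RNA was at 204 units at day 7 and 5637 at day 10. The 3′ to 5′ signal ratio, a measure of RNA integrity, was 1.11 and 1.10 for beta-actin and 0.847 and 0.944 for Gapdh. The part of these differences in the results below was not tested.

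**Figure D1:**
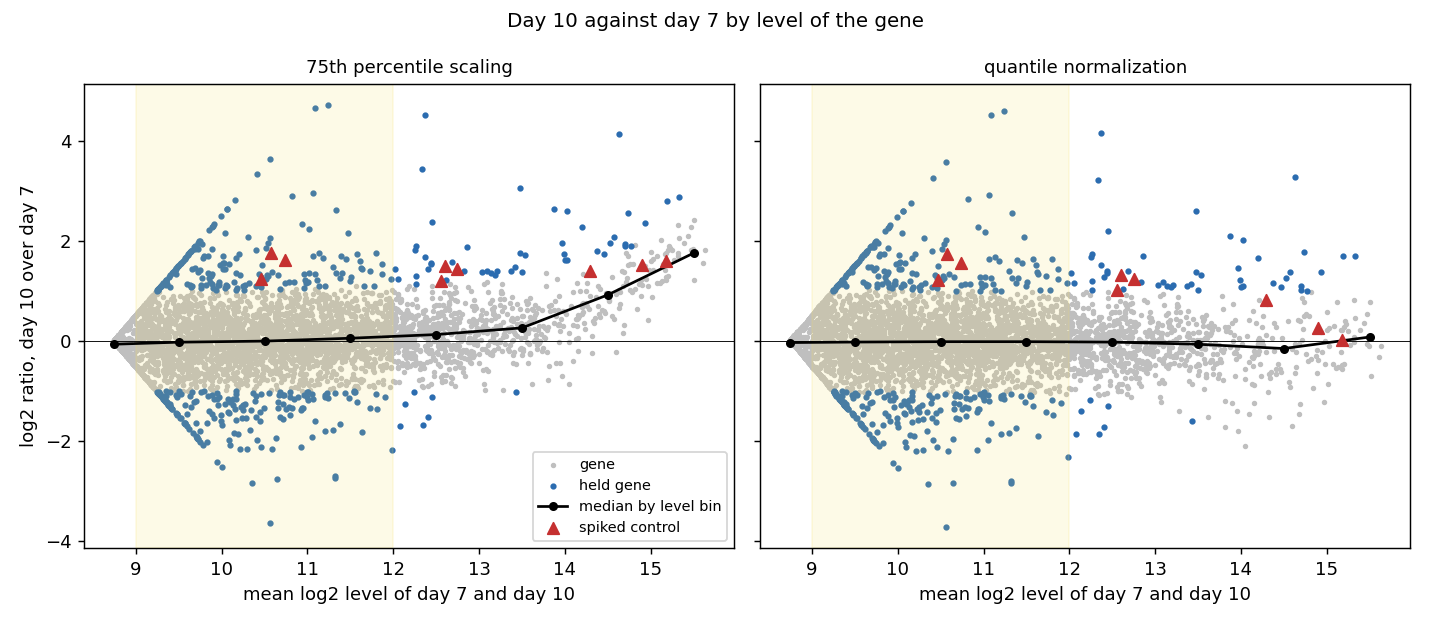
Log2 ratio of day 10 over day 7 (vertical axis) against the mean log2 level of both arrays after scaling (horizontal axis), after 75th percentile scaling on the left and quantile normalization on the right. Grey points are genes above the floor on at least 1 array, blue points held genes, red triangles the 9 spiked controls, the black line the median of each level class and the yellow band the mid-level range; the line climbs to 1.76 on the left and stays between -0.15 and 0.08 on the right, while most triangles stay above 1 in both.

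Of 8220 genes measured, 228 were held higher at day 10, or 2.77%, and 200 were held lower, or 2.43%. The counts in gene lists below are to be read beside these 2 shares. The lists and their members were chosen with earlier results of these data known, so a high count may come in part from that choice. Among the 4326 genes above the floor on at least 1 array 5.27% were held higher and 4.62% lower. Only these genes can be called, so lists with most members above the floor are to be read beside these shares too. In the mid-level range 181 of 3047 genes were held higher (5.94%) and 193 lower (6.33%). Of the genes held higher, 165 were measured above the floor on both arrays and 63 are lower bounds, and 101 had a ratio above the spiked median. Of those held lower, 139 were measured on both and 61 are bounds. The scaling alone called 314 genes higher (3.82%) and 201 lower (2.45%), a split of 61.0% higher, and quantile normalization alone 232 (2.82%) and 235 (2.86%), a split of 49.7% higher. The 2 rules therefore parted on higher genes, of which 86 were lost under quantile normalization, and less on lower ones, of which 1 was lost and 35 were called by quantile normalization alone. The median log2 ratio of genes above the floor was 0.05 after scaling, -0.02 after quantile normalization and -0.07 with no rescaling of the deposited intensities.

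With no replicate, the spread between cultures or arrays cannot be measured. How far 2 probe sets of a gene differ gives the disagreement between probes only, as both are read on the same arrays. Over 372 genes with both brightest probe sets above the floor on both arrays, the SD of the difference between their log2 ratios was 0.71, and in 143 of them the ratios had opposite signs. A ratio of 1, the limit for a call, is thus only moderately larger than this disagreement. Of the 228 genes held higher, 20 had another probe set above the floor, and in 9 of these it pointed the other way. Of the 200 held lower, 25 had one, and in 4 it pointed the other way. Genes with agreeing probe sets, each at least 2-fold different under both scalings, numbered 5 higher and 3 lower. The higher ones were Actb (beta-actin), Plekho1, a regulator of the cytoskeleton and of kinase signalling, Ero1a, an oxidase of the endoplasmic reticulum, Acvrl1, a receptor of the TGF-beta family, and F10, coagulation factor X. The lower ones were Fmnl1, an actin-nucleating formin, Zranb2, a splicing-associated zinc finger protein, and Tfdp1, the partner of E2F factors. Tfdp1 read 3477 units at day 7 and 1605 at day 10, a log2 ratio of -1.11, and its other probe set above the floor gave -1.22. Both F10 probe sets were brighter at day 10, at 5194 and 13530 units (1.38) and at 1188 and 3731 units (1.65). Plekho1 was at 604 and 1791 units, and its other probe sets gave log2 ratios of 2.33 and 1.30. Acvrl1 was at 751 and 1712 units, and while its second probe set gave 1.35, a further one above the floor, at 462 and 500 units, gave 0.11. Apart from F10, all of these were read by at least 1 probe set whose name marks it as shared or shortened.

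Genes of cell division were lower at day 10. In the list of mitosis and chromosome segregation 15 of 35 measured members were held lower (42.9%, against 2.43% of all genes) and 0 higher. The list median was -0.92 after scaling and -0.91 after quantile normalization, against 0.05 and -0.02 for all genes above the floor. The list had 30 members above the floor on at least 1 array, of which 29 had a ratio below 0. Mki67, which encodes the proliferation antigen Ki-67, was at 7899 units in progenitors, 4199 at day 7, 614 at day 10 and 657 with TNF, so day 10 was 6.84-fold under day 7. Cdc20, the activator of the anaphase-promoting complex, read 3258 and 725 units at day 7 and day 10, 4.49-fold lower. Levels of Kif22, a chromosome-binding kinesin, were 1823 and 450 units, 4.05-fold lower by a probe set that gene relatives may share. Birc5, the chromosomal passenger survivin, was at 1680 and 231 units, at least 3.92-fold lower, and Mad2l1, of the spindle checkpoint, at 1635 and 320 units, at least 3.82-fold lower. In all 5 of these genes the order was the same: progenitors highest, day 7 between, and both day 10 arrays lowest. Pttg1, the securin that restrains chromosome separation, was the 1 member with a ratio above 0, at 2122 and 2682 units.

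The other cell cycle lists pointed the same way. Among cyclins, Cdks and their regulators 8 of 20 members were held lower (40%, against 2.43% of all genes) and 0 higher. Cdk1, the kinase that drives mitosis, was at 9807 units in progenitors, 2934 at day 7, 678 at day 10 and 482 with TNF, 4.33-fold lower at day 10. Its small partner Cks1b was 3.97-fold lower, at 2702 and 681 units. Ccnb2, a B-type cyclin of mitosis, was still well above the floor at day 10, at 1692 units against 5953, 3.52-fold lower. Ccna2, the cyclin of S phase, was 2.23-fold lower and its kinase Cdk2 2.71-fold. Of the G1 members none was held: Ccnd1 (cyclin D1) was at 745 units at day 7 and 1201 at day 10, Cdk4 at 1262 and 2315, and Ccne1 (cyclin E1) at 578 and 579.

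Replication genes were lower as well. In the list of the MCM helicase and origin licensing 6 of 18 members were held lower (33.3%), with 0 higher. Mcm5, a subunit of the helicase that opens DNA, had 15849 units in progenitors, 4069 at day 7, 932 at day 10 and 615 with TNF, 4.37-fold lower at day 10. Mcm7 read 1987 and 662 units at day 7 and day 10, Mcm4 1647 and 405, Mcm3 1023 and 295, and Mcm2 993 and 210. All 5 measured helicase subunits named here were thus lower, those with a day 10 value under the floor by at least 3.85-fold (Mcm4), 2.39-fold (Mcm3) and 2.32-fold (Mcm2). The licensing factor gene Cdt1 lay just inside the limit, at 4208 and 2104 units with log2 ratios of -1.0 and -1.08. In the list of nucleotide supply and the replication fork 8 of 31 were held lower (25.8%), with 0 higher. Pclaf, which binds the sliding clamp PCNA, was at 2469 units at day 7 and 237 at day 10, at least 5.77-fold lower. Rrm1 and Rrm2, the subunits of ribonucleotide reductase, were 2.92-fold and 2.93-fold lower, and Pcna itself was at 6898 and 3418 units, 2.02-fold lower. Dnmt1, which copies DNA methylation at the fork, was 3.47-fold lower, and Dck, a kinase that salvages nucleosides, lay just outside the limit at log2 ratios of -0.95 and -1.03.

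Of the 15 held mitosis genes 14 were mid-level, as were all 8 held cyclin and Cdk genes. In bulk RNA, fewer dividing cells and less of these transcripts per cell cannot be told apart.

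**Figure D2:**
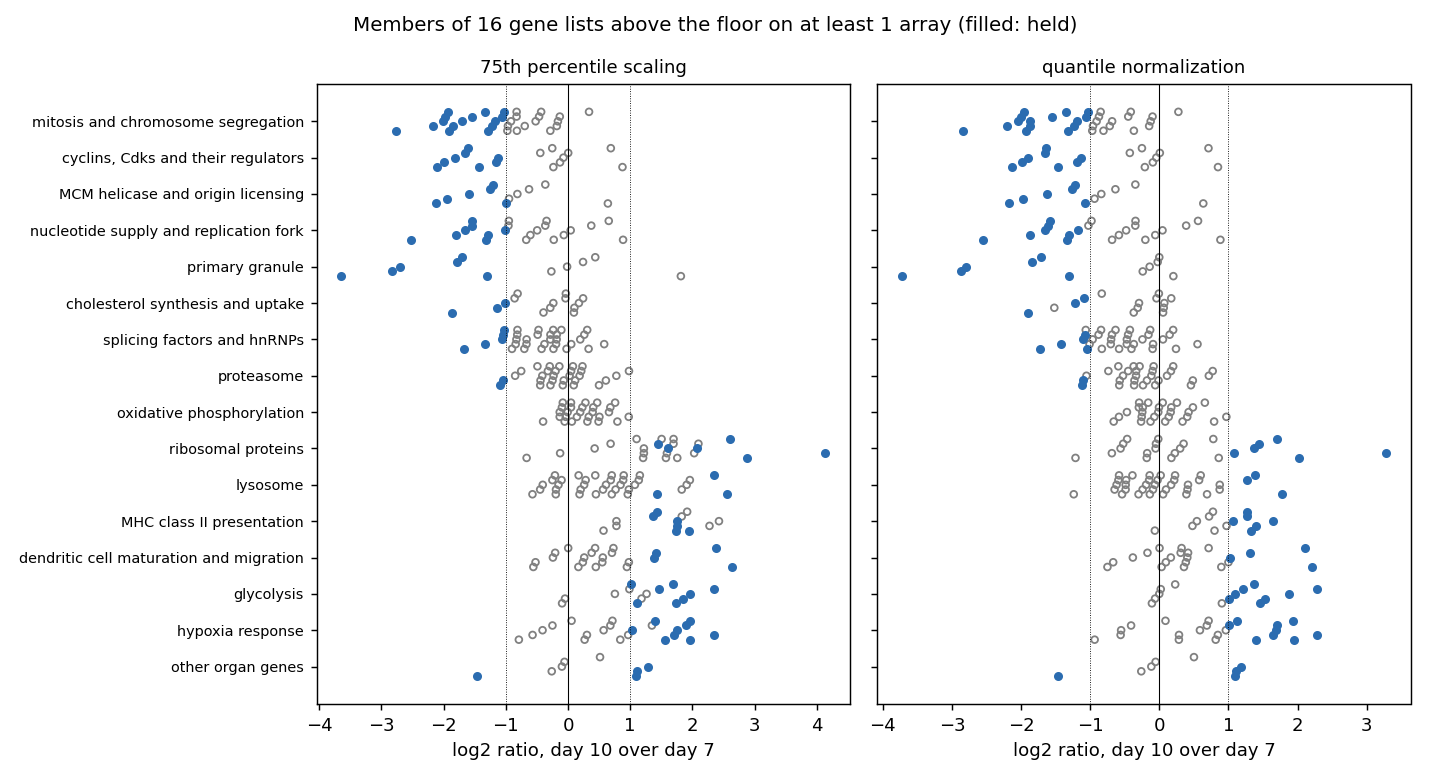
Log2 ratio of day 10 over day 7 for the members of 16 gene lists that were above the floor on at least 1 array, after 75th percentile scaling on the left and quantile normalization on the right; filled points are held genes and dotted lines mark 2-fold. The mitosis, cyclin, MCM and replication fork members lie mostly below 0 in both panels, the hypoxia response stays at medians of 0.68 and 0.69, and the ribosomal protein members shift from a median of 1.21 to 0.00.

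The promoters of these genes are shown because cell cycle genes are known to share short elements near their start sites, and the members were lower together. The windows hold the 250 bases upstream of a start in RefSeq's table of build GRCm38.p6, and 6550 measured genes had one. Motifs were searched on both strands: TTCCCGC or TTGGCGC as E2F-type sites of S phase genes, TTTGAA as the cell cycle homology region of mitotic genes, and CCAAT. On the opposite strand CCAAT reads ATTGG and can overlap TTGGCGC. Matches to the motif named for each gene stand in capitals in the strings below. Mki67 and Cdc20 are shown for TTTGAA and Mcm5 and Mcm7 for the E2F-type letters, which appear on the opposite strand as GCGCCAA and GCGGGAA. In each list they are the 2 held members with the largest ratios among those with a match. The matches shown were thus set by the choice. Mcm4, with a larger ratio than Mcm7, was passed over because no match was found. The Mki67 window is chr7:135716380-135716629 on the minus strand, with matches 116 and 98 bases upstream. The Cdc20 window is chr4:118437344-118437593 on the minus strand, with a match 18 bases upstream. The Mcm5 window is chr8:75109259-75109508 on the plus strand, with matches 164 and 149 bases upstream, and the Mcm7 window is chr5:138171884-138172133 on the minus strand, with a match 165 bases upstream.
Mki67: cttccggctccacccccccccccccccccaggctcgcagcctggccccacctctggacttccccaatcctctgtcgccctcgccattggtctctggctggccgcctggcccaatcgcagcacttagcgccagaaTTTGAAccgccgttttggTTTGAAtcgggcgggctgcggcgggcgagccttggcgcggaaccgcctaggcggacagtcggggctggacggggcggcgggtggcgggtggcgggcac
Cdc20: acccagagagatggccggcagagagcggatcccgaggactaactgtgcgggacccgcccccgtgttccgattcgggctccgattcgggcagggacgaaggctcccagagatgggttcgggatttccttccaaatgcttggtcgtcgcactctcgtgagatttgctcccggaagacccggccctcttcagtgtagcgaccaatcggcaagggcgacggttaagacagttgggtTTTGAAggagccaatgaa
Mcm5: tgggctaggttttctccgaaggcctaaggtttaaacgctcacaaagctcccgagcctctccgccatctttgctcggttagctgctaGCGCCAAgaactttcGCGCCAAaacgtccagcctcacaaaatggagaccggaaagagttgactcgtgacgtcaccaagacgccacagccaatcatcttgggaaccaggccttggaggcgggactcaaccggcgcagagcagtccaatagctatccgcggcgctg
Mcm7: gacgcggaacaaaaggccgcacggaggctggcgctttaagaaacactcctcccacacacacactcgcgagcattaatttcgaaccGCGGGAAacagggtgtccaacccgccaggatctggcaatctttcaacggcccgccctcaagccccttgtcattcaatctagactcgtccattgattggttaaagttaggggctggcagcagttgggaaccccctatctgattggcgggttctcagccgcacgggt

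Over all 27025 genes with such a window 5.71% held an E2F-type match, 16.3% TTTGAA and 34.5% CCAAT, and over those measured on the array 9.27%, 11.8% and 36.0%. In the mitosis list 10 of 31 windows (32.3%) held TTTGAA and 22 (71.0%) CCAAT, but 2 (6.45%) an E2F-type match. E2F-type letters were in 5 of 13 windows of the cyclin list (38.5%), 4 of 15 of the MCM list (26.7%) and 8 of 29 of the replication fork list (27.6%). TTTGAA was in 6 of 13 cyclin windows (46.2%). Primary granule genes, which were also lower at day 10, had 0 E2F-type matches in 9 windows, 2 with TTTGAA and 1 with CCAAT. The shares describe which letters lie in these windows and show no binding.

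Genes that restrain the cell cycle and those of the Myc programme held few calls, near the shares of all genes. Of 22 Cdk inhibitors and growth arrest genes 1 was held higher (4.55%, against 2.77% of all genes) and 0 lower (against 2.43%). Cdkn1c, the inhibitor p57, was at 304 units in progenitors, 151 at day 7, 1707 at day 10 and 386 with TNF, at least 3.99-fold higher at day 10. Only the day 10 array lay above the floor. The inhibitors Cdkn1a (p21) and Cdkn1b (p27) were bright on both arrays, at 9496 and 13085 units and at 11187 and 11714. Of 27 genes of the Myc network and ribosome biogenesis 0 were held in either direction, and of the 20 above the floor 12 had a ratio below 0 after scaling and 13 after quantile normalization. Myc was at 950 and 710 units, and Ncl (nucleolin) at 13468 and 13433. Progenitor regulators had 2 of 23 held lower: Myb, a factor of immature blood cells, at 8955 units in progenitors, 1104 at day 7, 248 at day 10 and 60 with TNF (at least 2.58-fold lower, by a shared probe set), and Ikzf1 (Ikaros), at 876 and 419 units (at least 2.05-fold). The growth factor receptor genes Kit and Flt3 were not held. Kit was at 1308 and 1362 units, and Flt3 at 805 and 517 with a second probe set at 442 and 1032, a log2 ratio of 1.22 against -0.64.

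Most of the measured genes in the primary granule list were lower at day 10. The list covers enzymes that promyelocytes pack into granules and also holds genes of other proteins, such as Hp and Cst7. Of 11 measured 6 were held lower (54.5%) and 0 higher, and the median was -1.30 after scaling and -1.31 after quantile normalization. Mpo, myeloperoxidase, was at 26660 units in progenitors, 5381 at day 7, 200 at day 10 and -235 with TNF, at least 12.6-fold lower at day 10. Prtn3 (proteinase 3) was at 25998, 3482, 488 and 180 units on the same arrays, 7.13-fold lower, and Elane (neutrophil elastase) at 27938, 6501, 999 and 636, 6.51-fold lower. The acute phase protein Hp (haptoglobin) was 3.44-fold lower at day 10, Ctsg (cathepsin G) at least 3.26-fold and Cst7 (cystatin F) at least 2.46-fold. Day 7 held an intermediate level in all 6, and no held member was brighter at day 10 or with TNF than at day 7. The scaling alone called 1 member higher, the lysozyme gene Lyz2, which macrophages also make, at 20706 and 72830 units with log2 ratios of 1.81 and 0.20. With it the summed level of the list was 65760 units at day 7 and 104304 at day 10. Mpo was read by a shared probe set, and its other probe set was under the floor on both arrays.

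For late granulocyte genes the result depended on the scaling. Of 19 members 1 was held lower and 0 higher, with medians of 0.00 and -0.49. The scaling called 3 higher and 1 lower, and quantile normalization 0 higher and 3 lower. Of the 17 above the floor 9 had a ratio below 0 after scaling and 14 after quantile normalization. Itgam, the integrin chain CD11b of neutrophils and macrophages, was the held member, at 1669 units in progenitors, 1769 at day 7, 583 at day 10 and 280 with TNF, 3.04-fold lower. The secondary granule genes Ltf and Camp were bright at both times, at 18367 and 13610 units and at 22894 and 12520. Both were lower under both scalings, by sizes that the scaling decides: Camp had log2 ratios of -0.87 and -2.10, and Ltf -0.43 and -1.40. The calgranulin gene S100a8 changed sign, with 1.28 and -0.49, and so did Chil3, with 1.55 and -0.31. No direction is given for S100a8 and Chil3.

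**Figure D3:**
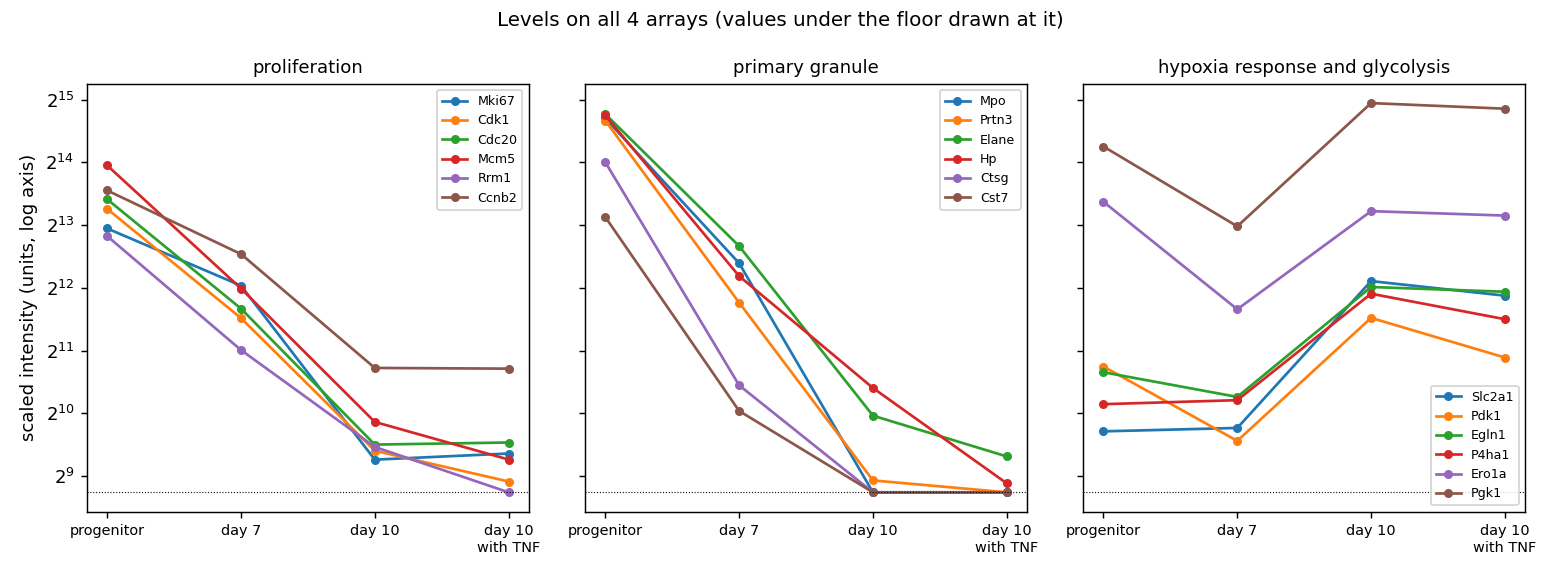
Levels on all 4 arrays (logarithmic axis, arbitrary units) of 6 proliferation genes, 6 primary granule genes and 6 genes of the hypoxia response and glycolysis; values under the floor of 428 units are drawn at it (dotted line). Mki67 runs from 7899 to 4199 to 614 and Mpo from 26660 to 5381 to under the floor, while Slc2a1 goes from 872 at day 7 to 4416 at day 10.

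Genes of the response to low oxygen were higher at day 10. Cells sense oxygen through prolyl hydroxylases that mark HIF for destruction, and when oxygen or hydroxylase activity is short HIF switches on glucose uptake, glycolysis and the hydroxylases themselves. Of 27 measured list members 9 were held higher (33.3%, against 2.77% of all genes) and 0 lower, and the median was 0.68 after scaling and 0.69 after quantile normalization. Of the 9, 7 had ratios above the spiked median and 6 were mid-level. Slc2a1, the glucose transporter GLUT1, was at 840 units in progenitors, 872 at day 7, 4416 at day 10 and 3760 with TNF, 5.07-fold higher at day 10. Pdk1, a kinase that keeps pyruvate out of the mitochondria, was at 1718, 756, 2941 and 1898 units, 3.89-fold higher. Egln1, the oxygen-sensing hydroxylase PHD2, was at 1613, 1228, 4137 and 3926 units, 3.37-fold higher. These 3 genes were above their progenitor level on both day 10 arrays. P4ha1, a hydroxylase of collagen, was at 1185 and 3841 units, and Ndrg1, a stress-induced gene, at 3874 and 14350. Ak4, a mitochondrial adenylate kinase, was at 58 and 1659 units, at least 3.87-fold higher, and its second probe set was at 115 and 782. Ero1a was 2.96-fold higher at 3234 and 9562 units, and its second probe set read 2914 and 9629. By the first probe set progenitors were brighter than both day 10 arrays, at 10603 units against 9110 with TNF. By the second they were dimmer, at 8100 against 9343 with TNF. Day 7 was the lowest of the 4 arrays by both. The transcriptional repressor gene Bhlhe40 was 2.62-fold higher. Higd1a, a mitochondrial protein gene, was just inside the limit at log2 ratios of 1.04 and 1.01.

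Other members of the list did not pass. Vegfa, the vascular growth factor, was at 152 units at day 7 and 702 at day 10, at least 1.64-fold higher. Bnip3, of mitophagy, lay just outside the limit at 340 and 837 units, with log2 ratios of 0.97 and 0.96. Hif1a, whose product is controlled mainly by protein destruction, was at 5252 and 4416 units, a log2 ratio of -0.25. Plin2, which coats lipid droplets, was bright at 11851 and 30193 units and had log2 ratios of 1.35 and 0.82, and the HIF-induced antagonist Cited2 was at 6632 and 3835 units.

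Glycolysis genes overlapped with this list at Slc2a1. Of 21 measured 8 were held higher (38.1%) and 0 lower, and the median was 0.99 after scaling and 0.02 after quantile normalization. The enzymes held higher came from several steps of the pathway. Hexokinase 2 (Hk2), which traps glucose in the cell, was at 2221 units in progenitors, 1905 at day 7, 5251 at day 10 and 3795 with TNF, 2.76-fold higher at day 10. Phosphofructokinase (Pfkl) was at 5561, 2956, 9510 and 6630 units, 3.22-fold higher, and aldolase A (Aldoa) at 632, 498, 1790 and 1514, 3.59-fold higher. Day 7 was the lowest of the 4 arrays in all 3 of these enzymes. Phosphoglycerate kinase (Pgk1) was at 8086 and 31558 units and triosephosphate isomerase (Tpi1) at 8944 and 29683, with log2 ratios of 1.96 and 1.46 and of 1.73 and 1.22. Pfkm and Ldhb, dim isoforms of phosphofructokinase and lactate dehydrogenase, were at least 2.15-fold and 2.01-fold higher. The late enzymes with the brightest probe sets depended on the scaling. Lactate dehydrogenase A (Ldha) was at 17830 and 40452 units, with log2 ratios of 1.18 and 0.02, and pyruvate kinase (Pkm) at 17433 and 41838, with 1.26 and 0.23. Of 31 oxidative phosphorylation genes and of 29 of the pentose phosphate pathway and the TCA cycle 0 were held, which in lists of this size is near the shares of 2.77% and 2.43% over all genes.

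The promoters of Slc2a1 and Egln1 are shown for the core of the hypoxia response element, ACGTG, which is the tail of the E-box CACGTG that Myc and other factors also bind. These 2 were likewise picked among held list members with a match. Ak4, Pdk1 and Ndrg1, with larger ratios than Egln1, were passed over because no match was found. The Slc2a1 window is chr4:119108495-119108744 on the plus strand of GRCm38.p6, with the core in capitals 36 bases upstream. The Egln1 window is chr8:124949255-124949504 on the minus strand, with the core 68 bases upstream. Both come from the same RefSeq table.
Slc2a1: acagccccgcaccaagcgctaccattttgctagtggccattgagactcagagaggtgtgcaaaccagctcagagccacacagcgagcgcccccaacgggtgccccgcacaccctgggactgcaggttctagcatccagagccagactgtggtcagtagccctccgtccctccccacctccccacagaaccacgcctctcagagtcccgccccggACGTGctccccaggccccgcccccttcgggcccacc
Egln1: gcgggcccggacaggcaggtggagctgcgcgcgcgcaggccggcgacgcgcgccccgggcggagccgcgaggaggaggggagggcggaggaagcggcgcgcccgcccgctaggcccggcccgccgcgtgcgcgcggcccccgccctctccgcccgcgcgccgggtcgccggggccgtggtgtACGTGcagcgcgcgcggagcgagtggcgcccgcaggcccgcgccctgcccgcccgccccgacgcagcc

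ACGTG on either strand was in 9 of 23 hypoxia response windows (39.1%) and in 8 of 20 glycolysis windows (40%), against 16.6% of all windows and 20.9% of those of measured genes. It was also in 7 of 13 cyclin and Cdk windows (53.8%), a list that was lower at day 10. Whether the letters bear on the levels was not tested.

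**Figure D4:**
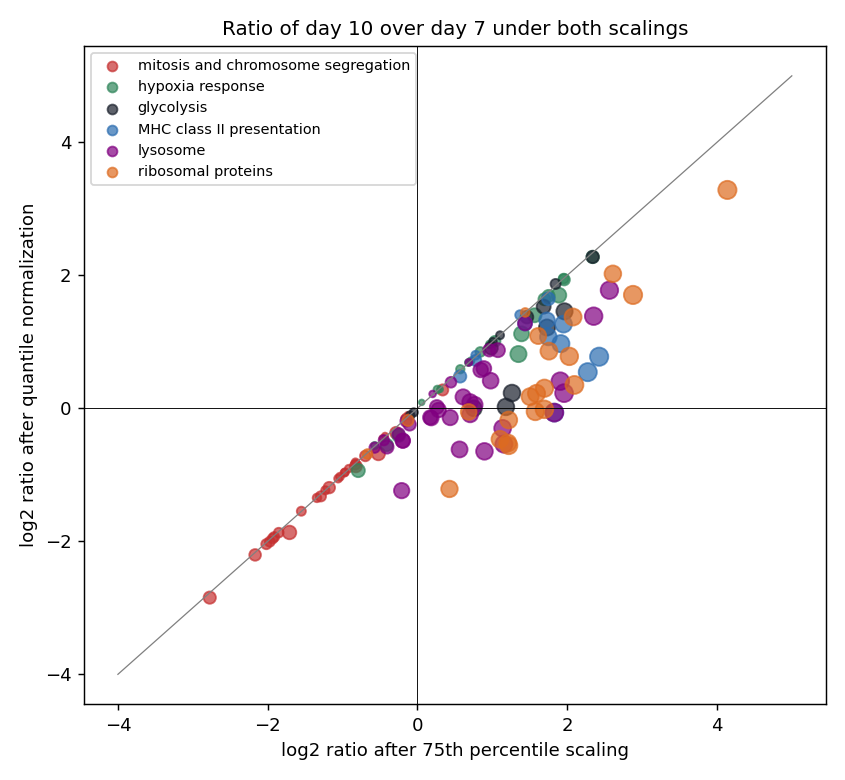
Log2 ratio of day 10 over day 7 after quantile normalization (vertical axis) against that after 75th percentile scaling (horizontal axis) for the members of 6 gene lists; the area of a point grows with the brighter of the 2 levels and the line marks equal ratios. Mitosis and hypoxia response genes lie near the line, and bright members of the MHC class II, lysosome and ribosomal protein lists fall below it, as Cd74 does with 2.43 and 0.78.

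MHC class II genes, by which dendritic cells present peptides, were higher at day 10 under both scalings for part of the list. Of 15 measured 6 were held higher (40%) and 0 lower, and the scaling alone called 10. The median was 1.73 after scaling and 0.80 after quantile normalization. Ciita, the master regulator of class II transcription and the dimmest held member, was at 53 units in progenitors, 572 at day 7, 1478 at day 10 and 1818 with TNF, 2.58-fold higher at day 10, with log2 ratios of 1.37 and 1.40. H2-DMb2, a chain of the peptide-loading molecule, was at 1672 and 5619 units (1.75 and 1.65), by a probe set shared within the family. H2-DMa and H2-DMb1 were at 12304 and 41346 units and at 6539 and 21691, and the class II beta chain gene H2-Ab1 at 11970 and 46287 (1.95 and 1.27). Lgmn, an asparaginyl endopeptidase that processes antigen, was 2.71-fold higher. H2-Aa and Cd74, the invariant chain, were at 20686 and 20060 units at day 7 already, and their log2 ratios of 2.27 and 2.43 shrank to 0.54 and 0.78. Ctss, the protease that removes the invariant chain, had 1.83 and -0.06. Of the 6 held, 4 had ratios above the spiked median, and 2 (Ciita and H2-DMb2) were mid-level.

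Class I presentation had 2 of 19 members held higher (10.5%, against 2.77% of all genes) and 0 lower. These were H2-M3, which presents bacterial formyl peptides, at 635 and 1858 units (1.55 and 1.56, by a shared probe set), and B2m, the light chain of class I, at 13547 and 52226 (1.95 and 1.10). The peptide transporter genes Tap1 and Tap2 lay just under the limit, with log2 ratios of 0.98 and 0.91 and of 0.98 and 0.97. The heavy chains H2-D1 and H2-K1 shrank from 1.62 and 1.76 to -0.07 and 0.21.

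Genes of dendritic cell maturation were mixed. Of 31 in the list of maturation and migration 4 were held higher (12.9%) and 0 lower, with medians of 0.17 and 0.03. Il7r, the receptor chain for interleukin-7, was at 105 units in progenitors, 2451 at day 7, 12734 at day 10 and 15554 with TNF, 5.19-fold higher at day 10. The chemokine Ccl17, which attracts T cells, was at -311, 6021, 37488 and 80445 units, with log2 ratios of 2.64 and 2.11. Socs3, a feedback inhibitor of cytokine signalling, was 2.66-fold higher at 2085 and 5538 units, and Ccl5, another T cell attractant, was just inside the limit at 1.39 and 1.03. The classical maturation markers named next did not reach the limit by their brightest probe sets. Ccr7, the receptor for lymph node homing, was at 4296 and 6296 units (0.55 and 0.42) and Cd83 at 3078 and 4524 (0.56 and 0.47). On the TNF array they stood at 19239 and 18714. A second Cd83 probe set was at 1261 and 2530 units, with log2 ratios of 1.004 and 0.976. It thus passed the limit after scaling but not after quantile normalization. The costimulatory gene Cd86 was at 1115 and 1042 units, Cd80 at 367 and 471, and Cd40 under the floor on both, at 170 and 146. The actin bundler of mature dendritic cells, Fscn1, was at 7778 and 5284 units (-0.56 and -0.75). Among 17 costimulation genes 1 was held higher, Tnfrsf9, which encodes the receptor 4-1BB, at 34 units in progenitors, 500 at day 7, 2229 at day 10 and 6418 with TNF, 4.46-fold higher at day 10.

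Chemokine ligands went in both directions. Of 25 measured 3 were held higher (12%, against 2.77% of all genes) and 2 lower (8%, against 2.43%). Besides Ccl17 and Ccl5, Ccl6, a chemokine of myeloid cells, was higher at 8555 and 41597 units (2.28 and 1.66). The inflammatory chemokines Ccl3 and Ccl4 were lower, Ccl4 at 2746 and 1073 units (2.56-fold) and Ccl3 at 5654 and 2613 (2.16-fold). The signal-induced cytokine gene Tnf was at 805 units at day 7 and 191 at day 10, at least 1.88-fold lower, which is outside the limit. Of 17 chemokine receptors Ccr6, the receptor of immature dendritic cells for CCL20, was held higher, from -353 to 936 units, at least 2.19-fold. In the NF-kB and TNF response 2 of 33 were held higher (6.06%, against 2.77% of all genes). The list had 25 members above the floor on at least 1 array, where 5.27% of all such genes were held higher. Nfkbie, the inhibitor I kappa B epsilon, was at 308 units in progenitors, 440 at day 7, 1589 at day 10 and 2177 with TNF, 3.61-fold higher at day 10, and the cytokine Il1a was at 365 and 872 units, at least 2.04-fold higher. The NF-kB subunit genes Rela and Nfkb2 were at 7705 and 7547 units and at 1660 and 2245. Relb was at 1366 and 2633 units, log2 ratios of 0.95 and 0.90, and its second probe set went the other way at -0.50.

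Transcription factors known from dendritic cells had 3 of 43 members held higher (6.98%) and 2 lower (4.65%), against 2.77% and 2.43% of all genes. Of the 43, 32 were above the floor on at least 1 array, where 5.27% and 4.62% of all such genes were held. Irf4, needed by a subset of conventional dendritic cells, was at -229 units in progenitors, 1907 at day 7, 4370 at day 10 and 11840 with TNF, 2.29-fold higher at day 10. Egr2, an immediate-early factor, was at 2197 and 6387 units, 2.91-fold higher. The third was Bhlhe40. Id1, which blocks helix-loop-helix factors, was lower at 5157 and 2461 units, 2.10-fold, and was at -25 with TNF. Its relative Id2 was at 13138 and 26187 units, log2 ratios of 1.0 and 0.35, which is 1.99-fold after scaling and 1.28-fold after quantile normalization. Irf8 was at 3774 and 5314 units (0.49 and 0.40), while Spi1, the gene of the factor PU.1, read 12494 and 13572 (0.12 and -0.25), so its sign depended on the scaling. Mafk, a small Maf protein and immediate-early list member, was at 358 and 1573 units, at least 3.67-fold higher.

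Receptors followed no common direction. The cytokine receptor and Socs list had 5 of 41 held higher (12.2%, against 2.77% of all genes) and 3 lower (7.32%, against 2.43%). Il10ra, a receptor chain for interleukin-10, was at 490 and 1601 units, 3.27-fold higher, and the kinase Tyk2 that acts below it went from -148 to 1062, at least 2.48-fold higher. Ifnar2, a chain of the type I interferon receptor, was lower at 1606 and 516 units, 3.11-fold, although its second probe set gave a log2 ratio of -0.30. Csf1r, the receptor of macrophage growth factor, was at 7257 and 11354 units (0.65 and 0.39). Itgax, which encodes the dendritic cell integrin CD11c, was at 105 units in progenitors, 6188 at day 7, 21075 at day 10 and 29065 with TNF, with log2 ratios of 1.77 and 1.37. Itgax was higher while its relative Itgam was lower. Itgb5, another integrin chain, was at 740 and 3082 units, 4.16-fold higher, but at -158 with TNF. Of 17 C-type lectins and uptake receptors 1 was held higher, the scavenger receptor Marco, at 931 and 2341 units. Interferon-induced genes had 1 of 29 held higher, Lgals3bp, at 2518 and 6866.

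Bright gene classes changed their counts with the scaling. In the lysosome list the scaling called 9 of 42 higher and 3 were held, with medians of 0.44 and 0.00. Those held were the aspartic protease Ctsd (cathepsin D), at 11193 and 66203 units (2.56 and 1.78), Psap, the precursor of saposins, at 13827 and 70685 (2.35 and 1.39), and Lgmn. A second Psap probe set, at 1462 and 1170 units, had the opposite sign. Ribosomal protein genes had 18 of 32 members called higher by the scaling and 6 held, with medians of 1.21 and 0.00. Rpl41 had the highest ratio of the list, at 6036 and 106411 units (4.14 and 3.28), by a shared probe set. Rpl37a was at 6756 and 41256 units (2.61 and 2.02), while Rpl7 turned from 0.43 to -1.21. Of the 6 held ribosomal genes 1 was mid-level, Rpl22, at 422 and 1161 units. The elongation factor gene Eef1a1 was at 14099 and 98672 units (2.81 and 1.69). Eif4ebp1, a repressor of translation, was mid-level at 1797 and 5459 units, 3.04-fold higher.

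Housekeeping genes were not level either. Of 11 measured 3 were held higher and 0 lower, with medians of 0.03 and -0.08. Actb by its brightest probe set was at 3111 units in progenitors, 469 at day 7, 12430 at day 10 and 7012 with TNF, 26.5-fold higher at day 10, and a second probe set was at 460 and 4922. The day 7 levels of both lie just above the floor. The 3′ beta-actin control probe set had lower log2 ratios, 3.01 and 2.05 against 4.73 and 4.60. Rplp0, a ribosomal protein gene, was called higher by the scaling alone, with 2.10 and 0.35. Of the others, Ywhaz was at 10728 and 12689 units, Sdha at 751 and 682 and Gusb at 6349 and 4790.

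Lipid genes gave both lower and higher members. Cholesterol synthesis had 3 of 18 held lower (16.7%) and 0 higher: Fdft1, squalene synthase, at 2236 and 612 units (3.65-fold), Hmgcs1, which makes HMG-CoA, at 4276 and 1928 (2.22-fold), and Idi1, an isomerase of isoprenoid units, at 4254 and 2104 (2.02-fold). Other steps were not held, as Sqle was at 3084 and 2618 units and Mvk at 1477 and 1436. The list median was -0.04 after scaling and -0.02 after quantile normalization. In fatty acid and lipid handling 2 of 35 were held higher (5.71%) and 1 lower (2.86%), against 2.77% and 2.43% of all genes. Of the 35, 27 were above the floor on at least 1 array, where 5.27% and 4.62% of all such genes were held. Fabp5, a carrier of fatty acids, was at 198 units in progenitors, 398 at day 7, 4338 at day 10 and 2810 with TNF, at least 10.1-fold higher at day 10. Pla2g7, which breaks down platelet-activating factor, was 2.40-fold higher, and Elovl6, which lengthens fatty acids, at least 2.27-fold lower.

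Genes of amino acid supply and stress held single members. Psat1, of serine synthesis, was at 10072 units in progenitors, 4143 at day 7, 1092 at day 10 and 206 with TNF, 3.80-fold lower at day 10. Ddit3, the stress factor CHOP, was at 336, 1350, 6011 and 4312 units, 4.45-fold higher, and Dnajb9, a chaperone of the endoplasmic reticulum, was lower at 1162 and 543. The glutathione peroxidase gene Gpx1 was 2.94-fold lower, at 2884 and 979 units. Of 32 proteasome genes 2 were held lower (6.25%, against 2.43% of all genes) and 0 higher. Of the 32, 29 were above the floor on at least 1 array, where 4.62% of all such genes were held lower. Psmd11 was at 3430 and 1614 units and Psmb5 at 4001 and 1933.

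RNA splicing and chromatin lists leaned lower. Of 37 splicing factors and hnRNPs 5 were held lower (13.5%) and 0 higher, with medians of -0.28 and -0.45. Sfpq, a splicing factor of paraspeckles, was at 1827 and 572 units, 3.19-fold lower by a shared probe set, with 4 further probe sets under the floor on both arrays. Srsf3 was 2.09-fold lower, Hnrnpa1 2.04-fold and Sf3b1 2.06-fold, its second probe set giving a log2 ratio of -0.82. Hnrnpdl was 2.52-fold lower by a shared probe set, while its second probe set had the opposite sign at 0.69. Among chromatin genes and histones 8 of 42 were held lower (19.0%) and 2 higher. The DNA-bending protein gene Hmgb2, known to follow proliferation, was at 14296 units in progenitors, 8610 at day 7, 1894 at day 10 and 1107 with TNF, 4.54-fold lower at day 10 by a shared probe set. Hmgb3 was 2.90-fold lower, and Cbx3, a heterochromatin protein, 3.18-fold. The DNA methyltransferases parted: the maintenance enzyme gene Dnmt1 was at 4403 and 1268 units, and Dnmt3a, which sets new methylation, at 957 and 4507, 4.71-fold higher. Dnmt3a was under the floor in progenitors, at 394 units, and at 2328 with TNF, and its other probe sets were under the floor on both arrays.

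The genes with the most extreme held ratios in the mid-level range, leaving out shared probe sets and genes with a contradicting probe set, were the following. On the lower side 12 genes ran from Prtn3 at 7.13-fold to Gmip at 4.21-fold. Proliferation and granule genes described above made up 8 of these: Prtn3, Mki67, Elane, Pclaf, Cdc20, Mcm5, Cdk1 and, of the chromosomal passenger complex, Cdca8, at 2664 and 593 units. The other 4 were Plac8, a small cysteine-rich protein gene of immature myeloid cells, at 24848 units in progenitors, 6642 at day 7, 988 at day 10 and 292 with TNF (6.72-fold), D17H6S56E-5 at 2516 and 562 (4.47-fold), Rbm38, an RNA-binding protein gene, at 1809 and 412 (at least 4.23-fold), and Gmip at 2244 and 533. All 12 were brightest in progenitors.

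On the higher side the 12 genes were of many kinds. Serf2, a small protein gene linked to protein aggregation, had the highest ratio, at 1569 units in progenitors, 434 at day 7, 10925 at day 10 and 8010 with TNF, 25.2-fold; its day 7 level is barely above the floor. Errfi1, a feedback inhibitor of the EGF receptor, was at 663, 429, 5330 and 2317 units, 12.4-fold higher from a day 7 level that is likewise barely above the floor, and Fbp1, fructose bisphosphatase of gluconeogenesis, at 1480, 661, 4930 and 2598, 7.45-fold higher. Slc7a2, a transporter of arginine and other cationic amino acids, was at -4, 1033, 6393 and 8338 units, 6.19-fold higher. The kallikrein Klk1b11 was at 377 and 3030 units (at least 7.08-fold), the Golgi regulator Arfgap3 at 297 and 2672 (at least 6.24-fold), and Hgfac, a protease that activates hepatocyte growth factor, at 36 and 2156 (at least 5.04-fold). Cox6a2, a subunit of cytochrome oxidase, was at 254 and 2079 units (at least 4.86-fold) and 2508 with TNF. Slc7a2 and Cox6a2 were the only ones of the 12 with a higher level with TNF than at day 10. H2-M1, a class I-like gene, was at 73 and 1983 units (at least 4.63-fold). Fabp5, Slc2a1 and Dnmt3a, described above, complete the 12. In 6 of the 12 day 7 lay under the floor, so the folds of these rest on the day 10 array alone.

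**Figure D5:**
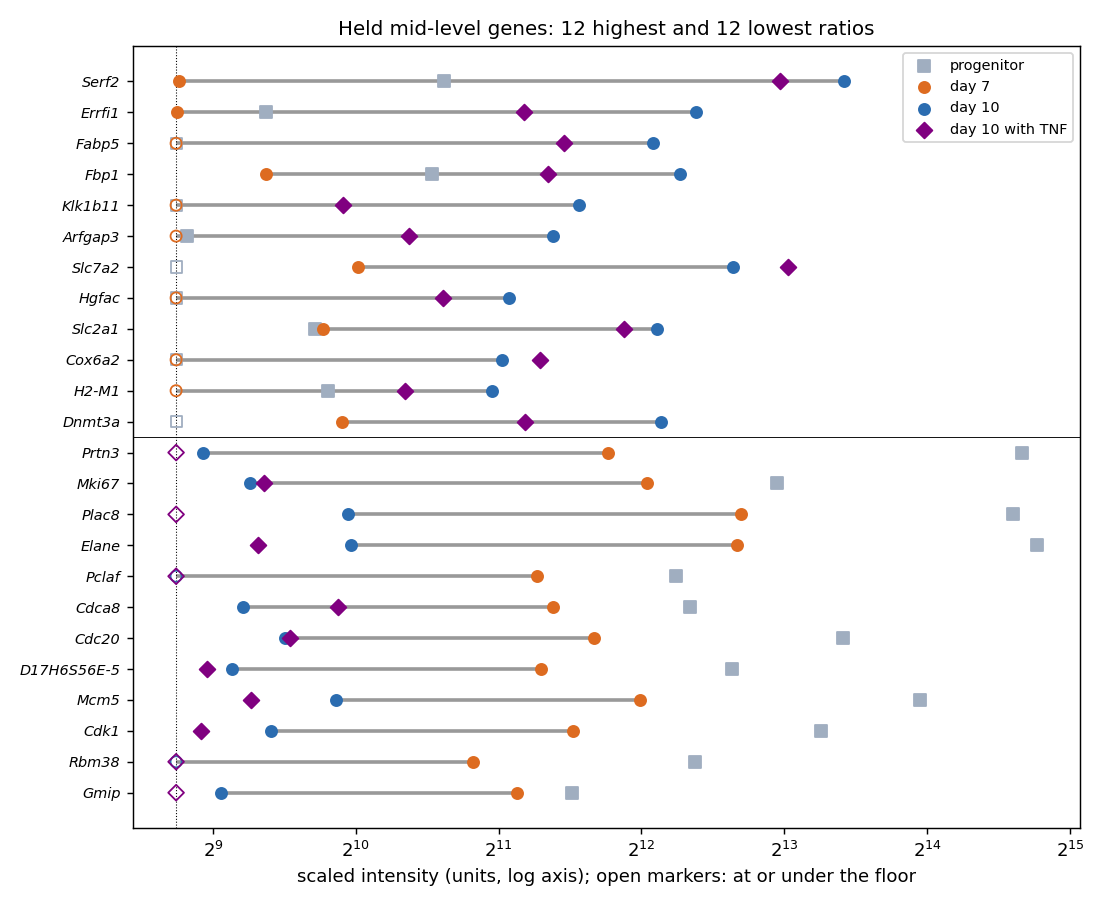
Levels (logarithmic axis, arbitrary units) on the 4 arrays of the 12 held mid-level genes with the highest and the 12 with the lowest ratios of day 10 over day 7; grey bars join day 7 (orange) and day 10 (blue), and open markers are values at or under the floor of 428 units. The lower genes run from a bright progenitor level through day 7 to day 10, as Plac8 does at 24848, 6642 and 988, and 6 of the upper 12 start at the floor at day 7.

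Among genes that mark dendritic cells, Itgax was held higher, at 6188 and 21075 units, as were H2-Ab1, Irf4 and Ciita. Cd74, at 20060 and 107887 units, was not held, with log2 ratios of 2.43 and 0.78. Neither was Ccr7, at 4296 and 6296 units, with 0.55 and 0.42. H2-Aa, Irf8 and Cd83 were not held either. Not all were higher at day 10. Cd86 was at 1115 and 1042 units, and Flt3 at 805 and 517 with a second probe set at 442 and 1032. Cd74 was above the floor in progenitors too, at 2380 units. Markers of other cells were measured beside them. Of 19 macrophage markers 14 were above the floor on both arrays, and 1 was held higher (Marco) and 1 lower (Itgam). Their summed level after scaling was 115735 units at day 7 and 286210 at day 10, a sum in which bright probe sets weigh most. The list medians were 0.23 after scaling and 0.12 after quantile normalization, which called 5 and 2 members higher. Adgre1, which encodes F4/80, was at 8999 and 9345 units and Cd14 at 1470 and 1724. Their part in the lysosome and scavenger receptor results was not tested. Of 16 mast cell and basophil and 7 eosinophil markers 0 were held in either direction, and of 23 T and NK cell markers 2 were above the floor on at least 1 array. Of 9 plasmacytoid dendritic cell markers 1 was held higher (11.1%), Cox6a2, and 0 lower, with 5 above the floor on at least 1 array. Their summed level after scaling was 1746 units at day 7 and 4934 at day 10, and the list median was 0.00 under both scalings. Of 48 genes restricted to other organs, which measure background, 3 were held higher (6.25%) and 1 lower (2.08%): Gh, Tnp1 and Apoa2, and Nppa. Of these 48 genes 8 were above the floor on at least 1 array, so the 4 held ones are 4 of the 8 that could be called.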

How the data were processed

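Total RNA of 4 groups was measured on Affymetrix mouse arrays, 1 each. The authors deposited linear probe-set intensities for 12654 probe sets; between 22.8% and 24.3% of an array's intensities lie below 0, and the mean of the central 96% is 998.8 to 999.03 on every array, so brightness had been matched before deposit. For the software and background method behind them no name is given in the sources used here. The first version of this array design, which these probe sets match, is known to carry some probe sets made to the wrong strand.

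Of the probe sets, 10298 had 1 gene symbol in the platform annotation, 363 several and 1993 none, and 10279 symbols were updated by Entrez number. Leaving out 66 controls, 8220 genes remained, each read by its brightest probe set over the 4 arrays (1609 had more than 1). Arrays were scaled to a common 75th percentile (factors 0.962 to 1.05), set to a floor of 428 units and converted to log2; quantile normalization over the 4 arrays was the second scaling. The script was tested on simulated data. Named genes were the 12 highest and 12 lowest held mid-level genes by the smaller of their 2 ratios, without shared probe sets or contradicting ones, up to 6 each way with agreeing probe sets, up to 5 held members of each list, and 22 genes named in advance. Further list members were named after their values were seen, to show those just inside or outside the limit and those not held. The members and the 56 lists (1423 genes measured) were chosen with earlier results of these data known. Python 3.11.15, pandas 2.3.3, numpy 2.4.6, statsmodels 0.14.6 and matplotlib 3.10.9 were used.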

Additional observations from a re-analysis of the deposited data

How the results depend on the processing

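The number of arrays, 1 a group, limits the precision. No paired analysis was possible because each group has 1 array, and for the same reason no array could be left out. Lowering the floor to the 40th percentile, 105 units, gave 573 genes held higher and 517 lower, with all 228 and 200 among them. Asking for 3-fold gave 71 higher and 51 lower, of which 57 and 49 were mid-level. The other settings (median over probe sets, values as deposited, loess in place of quantile normalization, quantile normalization over 2 arrays, shared probe sets left out) gave 184 to 228 higher and 155 to 215 lower. Values as deposited kept 193 of the higher calls and all 200 lower ones. For the 160 named genes, 888 of 960 ratios under an alternative stayed within the spread between probe sets and 72 moved by more. Reversals were counted for held genes only, and there were 0. The alternatives include the quantile normalization that defines a held gene, under which a held gene cannot reverse. Spi1, which is named but not held, did change sign, from 0.12 to -0.25 under quantile normalization. Of 392 list medians under the settings that can alter them 12 moved by more. Changes of sign were not counted for list medians. The housekeeping median, for one, was 0.03 after scaling and -0.08 after quantile normalization. Counts of held list members were less steady: 74 of 392 higher and 64 of 392 lower counts moved by over 1.5 times, 28 and 23 of these at 3-fold and 25 and 22 at the lower floor. At 3-fold the held members went from 15 to 8 for mitosis, 8 to 5 for cyclins and Cdks, 6 to 3 for MCM genes, 8 to 3 for the replication fork, 6 to 5 for primary granules, 9 to 6 for the hypoxia response, 8 to 2 for glycolysis, 6 to 1 for MHC class II, 5 to 1 for splicing, 8 to 3 for chromatin genes lower at day 10 and 3 to 0 for other organ genes higher.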

Other observations

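Several gene groups held few members. Among solute carriers and pumps 2 of 38 were held higher and 2 lower at day 10 (5.26% each way, against 2.77% and 2.43% of all genes). Kcnn4, a potassium channel opened by calcium, was at 722 units at day 7 and 2544 at day 10, 3.52-fold higher, and Slc20a1, a phosphate transporter, at 1195 and 391, at least 2.79-fold lower. Slc6a6, which imports taurine, was lower at 15739 and 7734 units (log2 ratios of -1.03 and -1.60), though its second probe set gave -0.06. Of 31 genes of the Bcl2 family and apoptosis 2 were held in each direction (6.45%, against 2.77% and 2.43% of all genes). Of the 31, 23 were above the floor on at least 1 array, where 5.27% and 4.62% of all such genes were held. The death agonist Bid at 1473 and 680 units and Birc5 were lower. Bad at 466 and 982 and the caspase gene Casp6 at 903 and 2192 were higher. Bmp4, a ligand of the TGF-beta family, was at 643 and 2161 units, 3.36-fold higher by a shared probe set, the 1 held member of 36 in its list. MAP kinases and phosphatases had 0 of 44 held in either direction.

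The actin list had 2 of 50 held in each direction (4%, against 2.77% and 2.43% of all genes). Of the 50, 37 were above the floor on at least 1 array, where 5.27% and 4.62% of all such genes were held. Beside Actb, the actin-binding profilin gene Pfn1 was higher, at 3271 and 9477 units (1.53 and 1.36), while Was, which drives actin branching, was at 5783 and 2243, 2.58-fold lower, and Arpc5, a subunit of the branching complex, at 1249 and 534, 2.34-fold lower. Of 53 vesicle traffic genes Rab10 was held higher, at 508 and 1663 units, and Rab9 lower, at 3656 and 1787. Vpreb1, a surrogate light chain gene of early B cells, was at 161 and 1175 units, the 1 held member of 17 B cell markers.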
